A study of Mus musculus with 6 samples.

Results

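The band 4.1 genes Epb41, Epb41l1, Epb41l2, Epb41l3, Epb41l4a, Epb41l4b and Epb41l5 were followed across 6 mouse breast tumors. These 7 genes were taken from the 18460 genes listed in at least 1 tumor, and all 7 were among the 13706 genes that passed the filter on low counts. The set was chosen by the measured levels of Epb41l4a, which was higher in every test tumor, so the levels of Epb41l4a in the 2 groups are a description and were given no test. The study profiled bulk RNA of breast tumors from Balb/c mice to compare tumors that grew with or without a transgene for thymic stromal lymphopoietin (TSLP), an epithelial cytokine that acts on CD4+ T cells. The 3 control tumors came from PyMTtg;Rag1KO mice and the 3 test tumors from K14-TSLPtg;PyMTtg;Rag1KO mice. Every host carried the polyoma middle T oncogene under the MMTV promoter, which is active in mammary epithelium, lacked Rag1 and therefore its own T and B cells, and was given CD4+ T cells at 4 wk of age. Tumors were taken at 18 to 20 wk. The Tslp transgene of the test mice is driven by the keratin 14 promoter, which is active in keratinocytes and other basal epithelial cells. Per the study, each tumor came from a separate mouse.

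Band 4.1 proteins hold a FERM domain that binds the cytoplasmic tails of membrane proteins, and they tie the plasma membrane to the cytoskeleton. Epb41, Epb41l1, Epb41l2 and Epb41l3 encode the longer proteins with a spectrin-actin binding region, first known from the red blood cell membrane skeleton. Epb41l4a, Epb41l4b and Epb41l5 encode shorter relatives without that region, which are linked to epithelial polarity and cell shape, and the human EPB41L4A gene has been described as a target of beta-catenin and TCF.

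The tumors gave 8373390 to 9449565 expected counts each, where an expected count is the number of reads that the authors' quantification assigned to a gene. Control replicate 2 stood apart from its group: its profile correlated with control replicates 1 and 3 at r = 0.87 and 0.90 across the tested genes, and with the 3 test tumors at r = 0.92 to 0.93, as a description across genes. Markers of luminal mammary epithelium were present in every tumor, with a summed level of 2139 to 5998 CPM, a count scaled to the library total. T cell markers summed to only 3.46 to 5.97 CPM, and all 5 of them were listed. Tslp itself had 2, 2 and 3 counts in the controls and 12, 7 and 2 in the test tumors, and Rag1 had 4 to 27 counts in every library, so neither gene checked the labels. Test replicate 2 had a lower level of long genes than the other tumors, which is described below beside the members it touches.

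Epb41l4a lies on the minus strand of chromosome 18 at 33796327-34007484 (GRCm38) and encodes a FERM protein of epithelia. In control replicates 1 to 3 its level was 11.1, 14.3 and 7.93 FPKM, a read count scaled to gene length and library size. In test replicates 1 to 3 it was 128, 37.7 and 125 FPKM. All 3 test tumors were above all 3 controls, and test replicate 2 lay well below the other 2 test tumors. The mean was 11.1 ± 3.20 FPKM (SD, n = 3) in the controls and 96.7 ± 51.1 FPKM (SD, n = 3) in the test tumors, a ratio of 8.70. The lowest test tumor exceeded the highest control 2.63-fold, and the highest exceeded the lowest test tumor 3.39-fold. The counts behind these levels were 399, 496 and 280 in the controls and 4157, 1263 and 4580 in the test tumors, and they were whole numbers in all 6 tumors, with no fraction of a read assigned to Epb41l4a. The fitted difference between test and control was 3.11 on the log2 scale (SE 0.50), which ranked Epb41l4a at place 38 of the 13706 tested genes by size of rise. In bulk tissue, more cells that express a gene and more RNA per cell cannot be told apart.

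**Figure D1:**
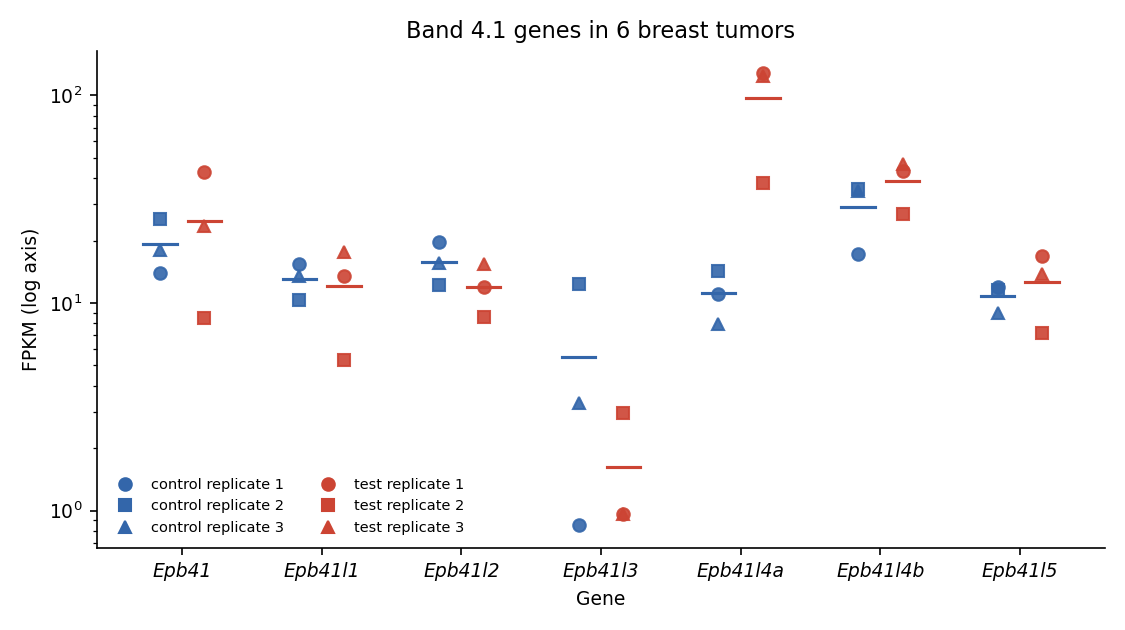
FPKM (log axis) of each band 4.1 gene in the 3 control (blue) and 3 test (red) tumors, with a marker shape for each replicate number and a line at the group mean. The groups are separate for Epb41l4a, from 14.3 FPKM at most in the controls to 37.7 FPKM at least in the test tumors, and they overlap for the other 6 genes.

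The other 6 members showed no difference between the groups that passed the test. Among them 2 were higher and 4 lower in the test tumors, with a median log2 difference of -0.11 against 0.02 over all tested genes, and adjusted p ran from 0.685 to 0.956 (edgeR quasi-likelihood test with Benjamini-Hochberg adjustment over all tested genes). None of the 6 was called by edgeR, where 0% of all tested genes were called, and none by DESeq2, which called 343 genes (1.87%), or by limma, which called at most 0.00776%. None had an unadjusted p under 0.05 in edgeR, where 8.41% of all tested genes (1153) did, 3.15% higher and 5.26% lower in the test tumors. Read on CPM, the 2 groups overlapped for all 6, where 12% of all tested genes had groups that did not overlap, and 6.12% had every test tumor above every control. The common coefficient of variation between tumors was 0.43, and a p that misses the threshold does not show that these 6 genes were alike in the 2 groups.

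**Figure D2:**
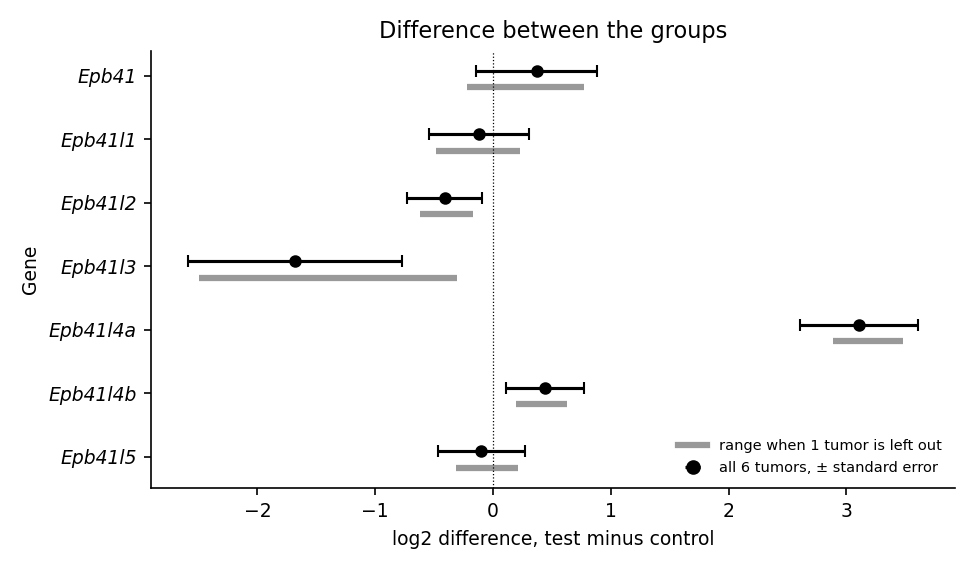
Log2 difference between test and control for each band 4.1 gene, with positive values higher in the test tumors. Points with bars give the fit to 6 tumors ± standard error, and grey bars give the range of the difference when each tumor was left out in turn, which for Epb41l4a was 2.88 to 3.48.

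Among the shorter members, Epb41l4b lies on the minus strand of chromosome 4 at 56991972-57143168. Its level was 17.2, 35.5 and 34.6 FPKM in control replicates 1 to 3 and 43.2, 26.7 and 46.8 FPKM in test replicates 1 to 3. Control replicate 1 was the lowest, and test replicate 2 fell between the controls. The log2 difference was 0.44 (SE 0.33), with an adjusted p of 0.758 from edgeR. As for Epb41l4a, test replicate 2 was the lowest of the test tumors, and this held for every member except Epb41l3.

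Epb41l5, whose protein binds the polarity protein Crumbs and is needed for the epithelial-mesenchymal transition of gastrulation, lies on the minus strand of chromosome 1 at 119545032-119649096. It was at 11.96, 11.6 and 8.97 FPKM in the controls and at 16.9, 7.20 and 13.8 FPKM in the test tumors. The test tumors lay on both sides of the controls. The sign of its difference varied between fits. The fit to counts gave -0.10 on the log2 scale (SE 0.37, adjusted p = 0.956 from edgeR), and limma on log2(FPKM + 1) gave 0.14. The gene length that the authors' files used for Epb41l5 differed between tumors, at 4261 bases in control replicate 1, 3504 bases in control replicate 3 and 2874 to 2971 bases in the others. FPKM divides by that length and the count does not, and the part of the length in the sign was not tested. The fit to counts also gave 0.21 without control replicate 1 and 0.16 without test replicate 2. The expected counts of Epb41l5 were whole in 2 of the 6 tumors, and in the others fractions of reads were assigned to it.

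Of the longer members, Epb41 encodes the founding protein of the family, which joins spectrin and actin to the red cell membrane and is also made in other cell types. It lies on the minus strand of chromosome 4 at 131923413-132075346. It was at 13.9, 25.5 and 18.1 FPKM in the controls and at 42.7, 8.48 and 23.5 FPKM in the test tumors. The highest and the lowest of the 6 values were both test tumors, 5.03-fold apart. The log2 difference was 0.37 (SE 0.51, adjusted p = 0.854 from edgeR), and without test replicate 1 it was -0.22. Summed red blood cell markers were at 150 to 560 CPM in the controls and 348 to 467 CPM in the test tumors, with 6 of 8 listed and the groups overlapping. Of the red cell lineage genes, Klf1 and Rhag had at most 3 and 5.53 counts in a tumor. Alas2 had 67, 45 and 100 counts in the controls and 93, 37 and 73 counts in the test tumors.

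Epb41l1, best known from neurons, lies on the plus strand of chromosome 2 at 156417595-156543214. Its controls were at 15.4, 10.3 and 13.4 FPKM and its test tumors at 13.5, 5.29 and 17.6 FPKM. The test tumors again held both extremes, and the log2 difference was -0.12 (SE 0.43, adjusted p = 0.955 from edgeR). It turned to 0.23 without test replicate 2. The expected counts of Epb41l1 were whole in none of the tumors, so fractions of reads were assigned to it in every library.

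Epb41l2, the widely expressed member, lies on the plus strand of chromosome 10 at 25359782-25523519. It was at 19.6, 12.2 and 15.6 FPKM in the controls and at 11.97, 8.52 and 15.4 FPKM in the test tumors. Its 2 highest values were in controls and its lowest was in test replicate 2. The log2 difference was -0.41 (SE 0.32, adjusted p = 0.760 from edgeR).

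Epb41l3, known for its loss in several carcinomas, lies on the plus strand of chromosome 17 at 69075647-69289991 and had the widest spread of the family within the control group. Its controls were at 0.85, 12.3 and 3.31 FPKM and its test tumors at 0.960, 2.95 and 0.960 FPKM. A single tumor, control replicate 2, stood above the rest, at 449 counts against 32 to 123 counts in the other 5. Control values spanned 14.5-fold. The log2 difference of -1.68 (SE 0.91, adjusted p = 0.685 from edgeR) was larger than that of any other member apart from Epb41l4a, and it was -0.31 without control replicate 2. The coefficient of variation between tumors for Epb41l3 was 0.74, above that of 95.0% of tested genes.

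Test replicate 2 was the tumor with the lowest FPKM for 4 of the 7 members, Epb41, Epb41l1, Epb41l2 and Epb41l5. In that library the level fell with gene length. Relative to the mean over tumors, the median log2 CPM of its tested genes was 0.80 for the 996 genes under 1 kb and -0.52 for the 1406 genes over 6 kb. At the lengths of the members the fitted trend in test replicate 2 lay between -0.08 for Epb41l4b and -0.45 for Epb41l1, and it was -0.23 for Epb41l4a. Control replicate 1 had a smaller trend the other way, from -0.35 for genes under 1 kb to 0.26 for genes over 6 kb. Its fitted value at the length of Epb41l1 was 0.22. With each tumor's own length trend removed, the log2 difference of Epb41l4a was 3.16 and that of Epb41l1 was 0.03.

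**Figure D3:**
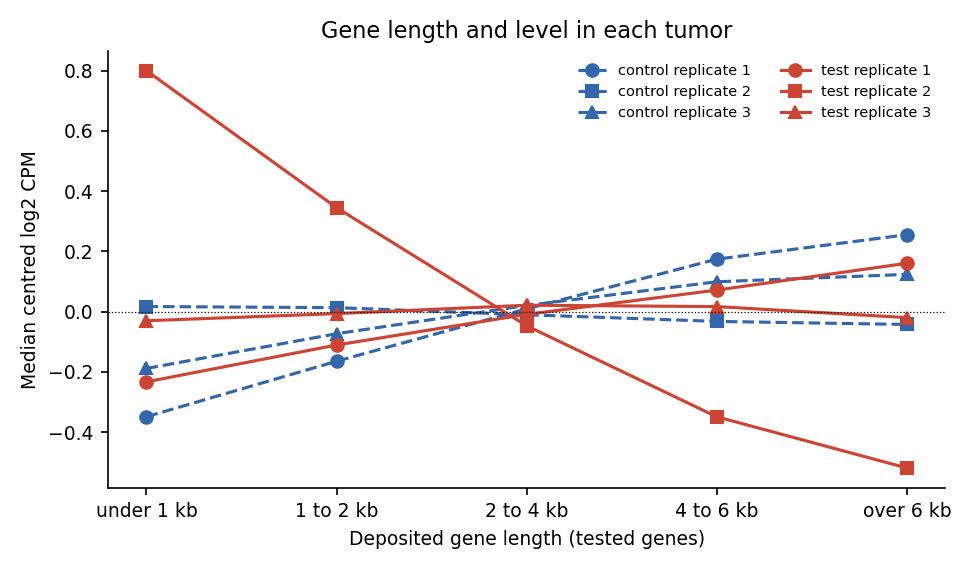
Median log2 CPM, centred on each gene's mean over the 6 tumors, for tested genes in 5 classes of gene length. Test replicate 2 falls from 0.80 in the shortest class to -0.52 in the longest, while the other 5 tumors stay between -0.35 and 0.26.

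Across the whole family, the summed level was 90.0, 122 and 102 FPKM in control replicates 1 to 3 and 257, 96.9 and 243 FPKM in test replicates 1 to 3. The sum did not separate the groups, because test replicate 2 fell between the controls. Without Epb41l4a the sums were 78.9, 107 and 94.0 FPKM in the controls and 129, 59.1 and 118 FPKM in the test tumors. Epb41l4a made up 12.3%, 11.8% and 7.78% of the family in the controls and 49.7%, 38.9% and 51.4% in the test tumors. It was the most abundant member in each test tumor, and ranked 6, 3 and 6 among the 7 in the controls. As this share uses the values that chose the set, it was given no test.

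By median FPKM over the 6 tumors the order was Epb41l4b at 35.0, Epb41l4a at 26.0, Epb41 at 20.8, Epb41l2 at 13.8, Epb41l1 at 13.4, Epb41l5 at 11.8 and Epb41l3 at 1.96. The 2 pairs of neighbours that include Epb41l4a are a description, since its levels chose the set. In the other 4 pairs the difference within tumors did not pass the test, with adjusted p from 0.375 to 0.875 over all 6 pairs (exact two-sided sign-flip permutation test of log2(FPKM + 0.1), 6 tumors). The smallest p this test can give is 0.03125, which for a single pair of the 6 becomes 0.1875 after adjustment, so 1 differing pair alone could not pass. Epb41l5 was higher than Epb41l3 in 5 of the 6 tumors, by a mean of 2.33 on the log2 scale, with an exact permutation p of 0.0625 and an adjusted p of 0.375. Epb41l3 was the lowest member in every tumor except control replicate 2, where Epb41l1 was. In the controls alone the medians placed Epb41l4b first at 34.6 FPKM and Epb41l4a next to last at 11.1 FPKM. In the test tumors Epb41l4a came first at 125 FPKM and Epb41l4b next at 43.2 FPKM.

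Of the summed cell type markers, those of luminal epithelium separated the groups, and none of the marker genes was called by edgeR. The luminal markers Krt8, Krt18, Krt19, Epcam, Cdh1, Elf5, Prom1 and Cldn3 summed to 2139 to 4663 CPM in the controls and 5885 to 5998 CPM in the test tumors, with every test tumor above every control, none of the 8 at 0 and a median log2 difference of 0.85. Taken singly, 4 of the 8, Krt8, Krt18, Krt19 and Cldn3, had every test tumor above every control on CPM, where 6.12% of all tested genes did. For Epcam, Cdh1, Elf5 and Prom1 the groups overlapped. By fitted values 7 of the 8 were higher in the test tumors and 1, Prom1, was lower, at -0.01. Within the test group the luminal sums were 5885, 5916 and 5998 CPM in replicates 1 to 3. The part of the luminal markers in the level of Epb41l4a was not tested. Skeletal muscle markers summed to 19.1 to 244 CPM in the controls and 139 to 1178 CPM in the test tumors, with the highest sum in test replicate 1, and adipocyte markers to 0.347 to 7.14 CPM and 2.02 to 244 CPM. The median log2 difference was 2.37 over the 10 tested muscle markers and 4.71 over the 2 tested adipocyte markers. All 10 muscle and all 6 adipocyte markers were listed, the groups overlapped in both sums, and their part in the levels of the members was not tested. Basal, fibroblast, endothelial, macrophage, Schwann cell, differentiated keratinocyte and T cell marker sums overlapped between the groups.

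The tumors' profile of Epb41l4a was compared with that of 13650 tested genes, by the root mean square difference of log2 CPM after centring each gene on its mean over the 6 tumors. The 5 nearest genes were Trim6 at 0.52, Cldn1 at 0.55, Megf6 at 0.59, Dmkn at 0.64 and Tc2n at 0.64, against a median of 1.65 over all genes compared. Cldn1, a tight junction protein, was at 9.59, 15.0 and 11.1 FPKM in the controls and at 60.1, 19.1 and 93.2 FPKM in the test tumors. Dmkn, which encodes the secreted epithelial protein dermokine, was at 2.41, 4.86 and 0.350 FPKM and at 93.1, 25.4 and 41.7 FPKM. Like Epb41l4a, both were lowest among the test tumors in replicate 2, and in both the groups were separate. Tc2n, a C2 domain protein, was at 6.88, 4.58 and 2.45 FPKM in the controls and at 24.4, 9.24 and 21.0 FPKM in the test tumors. Trim6, a ubiquitin ligase, rested on 1 to 39 counts a tumor. Being chosen for likeness to Epb41l4a, these 5 genes were given no test. Of the other band 4.1 genes, Epb41l4b was at 1.36, Epb41 at 1.45, Epb41l5 at 1.58, Epb41l1 at 1.65, Epb41l2 at 1.76 and Epb41l3 at 2.53. The distance is measured from the levels that chose the set, and only genes with a like rise can be near. These values are a description.

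No tested gene near Epb41l4a on the chromosome had a difference of its size. Of 58 annotated genes within 1 Mb of its ends, 26 were listed and 21 tested, of which 10 were higher and 11 lower in the test tumors. None of the 21 was called by edgeR, DESeq2 or limma. Egr1 alone had an unadjusted p under 0.05 in edgeR, where 8.41% of all tested genes did. The median log2 difference of the 21 was -0.02, with a range from -1.47 to 0.77. Epb41l4aos, a long noncoding RNA gene on the opposite strand, lies 0.338 kb beyond the 3′ end of Epb41l4a and held the highest of these differences. It had 43, 72 and 49 counts in the controls and 80, 107 and 80 counts in the test tumors. All test tumors were above all controls, where 6.12% of all tested genes were. The log2 difference of Epb41l4aos was 0.77 (SE 0.38, adjusted p = 0.656 from edgeR). The annotated genes do not overlap, and whether the libraries kept strand is not given in the sources used here.

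**Figure D4:**
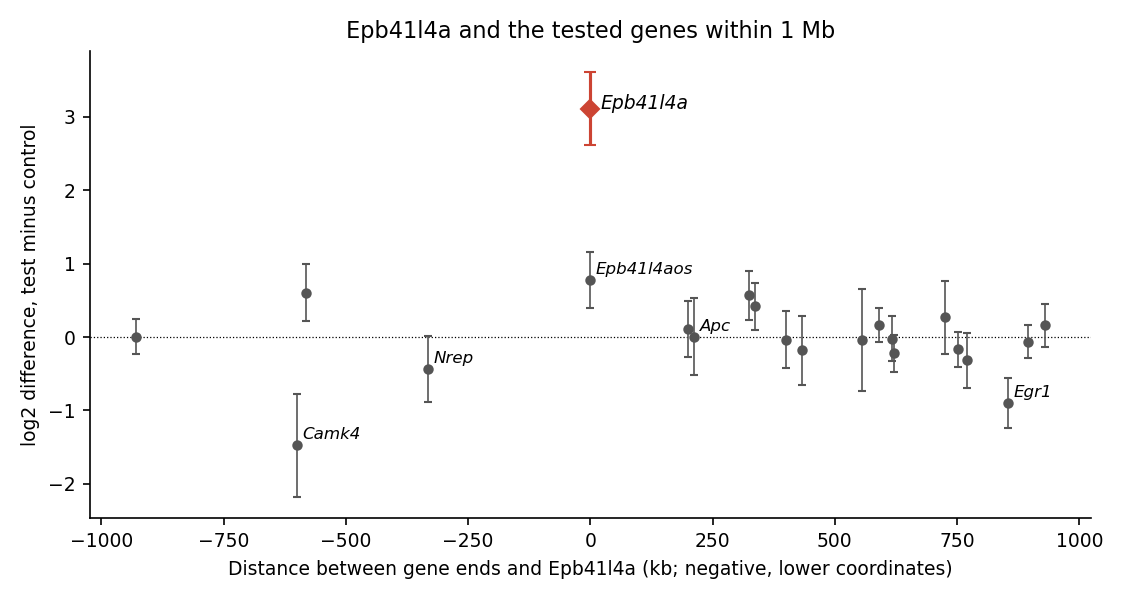
Log2 difference between test and control (± standard error) of Epb41l4a and the 21 tested genes within 1 Mb, against the distance in kb between gene ends. Epb41l4a lies at 3.11 and the neighbours between -1.47 for Camk4 and 0.77 for Epb41l4aos.

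Apc, which encodes the scaffold of the beta-catenin destruction complex and lies 213 kb away, was at 13.4, 12.9 and 15.2 FPKM in the controls and at 25.5, 4.44 and 12.4 FPKM in the test tumors. Its log2 difference was 0.01 (SE 0.53, adjusted p = 0.998 from edgeR), with both extremes in test tumors. Egr1, an immediate early transcription factor, was the only neighbour with every test tumor below every control, where 5.86% of all tested genes were. Its log2 difference was -0.90 (SE 0.34, adjusted p = 0.533 from edgeR). The endogenous Tslp gene lies 977 kb from Epb41l4a and had too few counts to be tested.

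Because human EPB41L4A has been described as a beta-catenin target, a list of 12 genes known as targets of canonical Wnt signaling was set beside it. Of these, 9 were tested, and edgeR and limma called none, while DESeq2 called Apcdd1, where it called 1.87% of all genes it tested. All 9 had lower fitted values in the test tumors, with a median log2 difference of -1.24 against 0.02 over all tested genes. In 4 of the 9, Tcf7, Znrf3, Apcdd1 and Wif1, every test tumor was below every control on CPM, where 5.86% of all tested genes were, and 5 of 9 had an unadjusted p under 0.05 and were lower, where 5.26% of all tested genes did. The list was chosen with results of these tumors known and its counts are a description. Without control replicate 2, fitted values were lower in 7 of the 9 and higher in 2.

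Apcdd1, an inhibitor of Wnt signaling, was at 25.2, 2.63 and 9.39 FPKM in the controls and at 0.680, 1.28 and 0.750 FPKM in the test tumors. The log2 difference was -3.80 (SE 0.85, adjusted p = 0.394 from edgeR), and the controls differed among themselves more than the test tumors did. Apcdd1 passed the test when control replicate 2 was left out, where 1.28% of all tested genes were called. Wif1, a secreted Wnt inhibitor, was at 42.1, 23.0 and 12.2 FPKM and at 1.44, 10.8 and 2.21 FPKM, with test replicate 2 just under the lowest control. Its log2 difference was -2.40 (SE 0.85, adjusted p = 0.497 from edgeR). Lef1, a TCF family transcription factor, was at 30.7, 0.830 and 2.21 FPKM in the controls and at 0.05, 1.76 and 0.05 FPKM in the test tumors. Its counts were 913, 23 and 74 in the controls and 1, 40 and 1 in the test tumors, with control replicate 1 far the highest, and the groups overlapped. Axin2, a feedback inhibitor widely used as a readout of the pathway, was at 1.08, 9.22 and 1.58 FPKM in the controls and at 1.41, 0.620 and 6.46 FPKM in the test tumors, which overlapped. It was named after its values were seen.

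**Figure D5:**
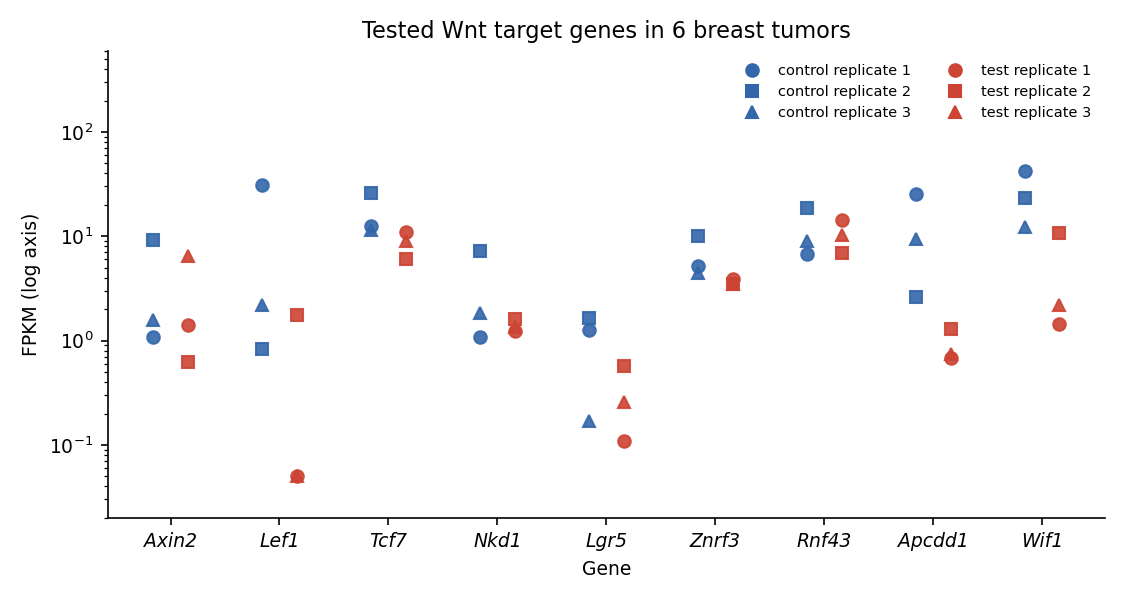
FPKM (log axis) of the 9 tested Wnt target genes in the 3 control (blue) and 3 test (red) tumors. The groups are separate for Tcf7, Znrf3, Apcdd1 and Wif1, with the test tumors lower, and they overlap for the other 5 genes.

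Other FERM domain genes were examined as relatives of the band 4.1 genes. Of 24, 22 were tested, 9 were higher and 13 lower in the test tumors, and edgeR and limma called none, while DESeq2 called Ptpn14 and Tln2, where it called 1.87% of all genes it tested. The median log2 difference was -0.19, and 4 had an unadjusted p under 0.05 in edgeR and were lower, where 5.26% of all tested genes did. Ptpn14, a phosphatase that binds the growth regulator Yap, was at 25.6, 6.93 and 15.2 FPKM in the controls and at 2.47, 2.15 and 3.34 FPKM in the test tumors. Every test tumor was below every control, and the log2 difference was -2.61 (SE 0.51, adjusted p = 0.394 from edgeR). Ptpn14 passed the test when control replicate 2 was left out, a fit that called 1.28% of all tested genes. Tln2, a talin that links integrins to actin, had a log2 difference of -1.23 (adjusted p = 0.394 from edgeR), and Frmd4a one of -0.89 (adjusted p = 0.471 from edgeR). With Ptpn14 they were the 3 genes of the list with every test tumor below every control, where 5.86% of all tested genes were. Rdx was the only gene of the list with every test tumor above every control on CPM, where 6.12% of all tested genes were. It was named after its values were seen. Its FPKM overlapped, at 38.5, 49.4 and 44.1 in the controls and 51.1, 86.9 and 47.8 in the test tumors. Ezr, the linker of microvilli and the most abundant of the list, was at 153 to 262 FPKM in the controls and 117 to 148 FPKM in the test tumors.

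The spectrin membrane skeleton, to which the longer band 4.1 proteins attach, was represented by 21 genes, of which 14 were tested. Of these 6 were higher and 8 lower, with a median log2 difference of -0.27. None was called by edgeR, DESeq2 or limma, and 1, Ank2, had an unadjusted p under 0.05 in edgeR, where 8.41% of all tested genes did. Sptan1, the main nonerythroid alpha spectrin, was at 47.9 to 58.8 FPKM in the controls and 38.6 to 66.2 FPKM in the test tumors. Its partner Sptbn1 was at 50.1 to 57.8 FPKM and 20.2 to 48.5 FPKM, a log2 difference of -0.60 (SE 0.34, adjusted p = 0.695 from edgeR) with test replicate 2 lowest. Sptb, the erythroid and muscle beta spectrin, was highest in test replicate 1 at 13.3 FPKM against 1.63 to 5.57 FPKM in the other 5 tumors, and test replicate 1 also had the highest sum of muscle markers. Their part in the level of Sptb was not tested. Ank2, an ankyrin, was at 4.29, 0.470 and 5.23 FPKM in the controls and at 0.710, 0.790 and 1.01 FPKM in the test tumors, with control replicate 2 the lowest of all. Its log2 difference was -2.02 (SE 0.78, adjusted p = 0.544 from edgeR), and Ank2 passed the test when control replicate 2 was left out, as did 1.28% of all tested genes.

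Among 23 polarity and adhesion partners of band 4.1 proteins, 18 were tested, with 6 higher, 12 lower and a median log2 difference of -0.05. None was called by edgeR, DESeq2 or limma. Pard6b and Cntnap1 had an unadjusted p under 0.05 in edgeR, where 8.41% of all tested genes did. Pard6b, a subunit of the apical Par complex, was at 1.39, 3.66 and 3.49 FPKM in the controls and at 7.23, 3.62 and 6.99 FPKM in the test tumors. The groups were separate on CPM but not on FPKM, and the log2 difference was 1.08 (SE 0.44, adjusted p = 0.553 from edgeR). Crb3, the epithelial Crumbs protein, was at 9.18, 25.1 and 9.52 FPKM and at 22.8, 26.5 and 20.5 FPKM, where control replicate 2 lay among the test tumors. Cntnap1, a partner of band 4.1 proteins at the node of Ranvier, had a log2 difference of -2.05 (SE 0.51, adjusted p = 0.394 from edgeR) on 8 to 54 counts a tumor. Ctnnd1, the p120 catenin of cadherin junctions and the most abundant of the list, was at 66.9 to 80.2 FPKM in the controls and 46.9 to 97.4 FPKM in the test tumors.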

How the data were processed

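Bulk RNA of 3 control and 3 test breast tumors was sequenced, and groups were taken from the sample labels. Per the labels and the study's methods, the authors aligned reads to mm10 and deposited expected counts per gene, with Bowtie, BWA and RSEM named in their processing notes without versions. The deposited files also hold FPKM values, which the authors scaled to gene length and library size. Genes missing from a file were taken as 0 there.

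Expected counts were rounded, filtered with filterByExpr, scaled by TMM and tested with edgeR 4.0.16 (quasi-likelihood, R 4.3.3), with Benjamini-Hochberg adjustment over all 13706 tested genes and a threshold of 0.05. Alternatives used DESeq2 1.42.0, limma 3.58.1 on log2(FPKM + 1) and log2(FPKM + 0.1), size factors, other filters, a replicate block, removal of the length trend and leaving out each tumor. Totals of 8373390 to 9449565 limit the precision of low genes.

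The members, lists and tests were chosen with earlier results of these data known. Named genes were the 7 members, per list the 3 genes with the smallest p and the most abundant, neighbours within 1 Mb, and the 5 nearest profiles among genes with a mean CPM of at least 1. Positions are from RefSeq GRCm38.p6 annotation, which matched 18400 of 18460 gene identifiers.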

Additional observations from a re-analysis of the deposited data

How the results depend on the processing

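The log2 difference of Epb41l4a, whose direction was fixed by the choice of the set, had values from 2.85 to 3.48 under 14 alternatives and from 2.88 to 3.48 when each tumor was left out. No other band 4.1 gene was called under any of the 14. The number of genes called over the whole table was 0 in the fit described, 343 with DESeq2, 1 (Gpx2) with limma on log2(FPKM + 1), and 0 to 182 when each tumor was left out, with 182 without control replicate 2. In checks chosen after seeing the data, leaving out control replicate 2 called 1 other FERM domain gene (Ptpn14), 1 membrane skeleton gene (Ank2) and 1 Wnt target gene (Apcdd1), and DESeq2 called 2 FERM domain genes (Ptpn14 and Tln2) and 1 Wnt target gene (Apcdd1). The difference of Epb41 ran from -0.22 (without test replicate 1) to 0.77 when a tumor was left out, that of Epb41l1 from -0.48 to 0.23, and that of Epb41l5 from -0.32 to 0.21. Epb41l1 turned to 0.0319 with the length trend removed, and Epb41l5 to 0.14 with limma on FPKM, with either pseudocount. Epb41l1 was 0.07 without control replicate 1 and 0.23 without test replicate 2, and Epb41l5 was 0.21 and 0.16. The cause was not tested. The 2 groups share replicate numbers, and the fit described did not pair the tumors by them. Deviations of same-numbered tumors from their group means correlated at -0.03, 0.11 and -0.14. Those of differently numbered tumors correlated at -0.15 to 0.21. With 3 tumors in each group these values cannot show whether the numbers pair the tumors. With the replicate block 0 genes were called, 1056 against 1153 had an unadjusted p under 0.05, and the Epb41l4a difference was 3.00. The order of the members was not retested with a tumor left out, since 5 tumors cannot give a p below 0.0625.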
